A study of Drosophila melanogaster with 12 samples.

Results

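The genes for the core enzymes of glycolysis were followed in whole adult male Drosophila melanogaster kept on a high-sugar or a control diet. The set held 10 genes, chosen by symbol for the steps between glucose 6-phosphate and pyruvate. Of these, 8 (Pgi, Pfk, Ald1, Tpi, Gapdh1, Pgk, Pglym78 and Eno) were named on the array through a probe set annotated to exactly 1 gene. A probe set is a group of short probes that together give 1 value. All 8 passed the filter on dim probe sets, among 10418 genes tested in all. Gapdh2 and Pyk were not named on the array annotation used and were not analysed here, so the step that yields pyruvate has no value.

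All flies were males of the wild-type strain Canton-S, 3 to 5 days old when feeding began, and held in vials of 1 sex. High-sugar and control flies fed for 4 weeks were killed at 31 to 33 days of age. Those fed for 2 days on either diet were killed at 5 to 7 days. Each of the 4 groups held 3 Affymetrix arrays of total RNA, which the labels call biological replicates, or 12 arrays in all; the labels used here give neither the number of flies per sample nor the sugar content of the diets. Feeding time and age are the same variable in this design. The table records no processing batch, and if the 4-week and 2-day samples were processed on different days, that cannot be told apart from time.

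Glycolysis splits glucose into pyruvate in the cytosol and yields ATP and NADH. In its first stage sugar phosphates are primed and cleaved into triose phosphates, and in its second stage the trioses are oxidised and their phosphates passed to ADP. Insect flight muscle relies on this pathway to burn carbohydrate in flight, and adult muscle carries high amounts of its enzymes. In fly larvae transcription of many of these genes is driven by the nuclear receptor ERR, and carbohydrate in the food acts on metabolic genes through the sugar sensor Mondo with its partner Mlx.

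The deposited values were linear intensities, and array medians ran from 86.97 to 93.42. The 8 enzyme genes lay high in the distribution, their mean log2 intensity exceeding that of 91.5% (Pfk) to 98.9% (Eno) of all probe sets other than controls. The top of the distribution itself moved with time, and within each time it was lower on high-sugar arrays. The 99th percentile of all probe sets was 8009 to 8202 on high-sugar arrays and 8275 to 8609.7 on control arrays at 4 weeks, against 9085 to 9309.6 on high-sugar arrays and 9440.02 to 9713 on control arrays at 2 days. With 3 arrays a group, precision is limited throughout.

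High sugar was compared with control at each time to ask whether the diet altered transcripts of the pathway that consumes glucose. None of the 8 glycolytic genes passed the threshold at 4 weeks or at 2 days (limma, Benjamini-Hochberg adjusted p under 0.05 over all genes). Across all genes, 1.93% passed at 4 weeks and 0.144% at 2 days. The median log2 fold change of the 8 genes was -0.02 at 4 weeks, with a range of -0.06 to 0.12, beside 0.01 over all genes. At 2 days it was -0.05, with a range of -0.17 to 0.09, beside -0.00 over all genes.

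The interval of each gene gives a range for its diet effect, taken gene by gene, on the deposited scale and for the probe set kept. Under quantile normalization Pglym78 at 4 weeks stood at 0.19 (SE 0.08) and Pfk at 2 days at 0.14 (SE 0.08) on the log2 scale. The limits below do not cover that setting. At 4 weeks the 95% intervals of the 8 genes lay between 88.2% and 121.9% of the control level, and at 2 days between 79.5% and 120.4%. Averaged over both times none of the 8 passed either, beside 2.62% of all genes, and the intervals narrowed to between 88.9% and 114.8% of control. The lowest adjusted p among the 8 was 0.376 at 4 weeks (Pglym78) and 0.562 at 2 days (Tpi).

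In the first stage, Pgi encodes phosphoglucose isomerase, which turns glucose 6-phosphate into fructose 6-phosphate. Its intensity at 2 days was 6849.7, 6923 and 6706.5 on high sugar and 7421, 7594 and 7030.2 on control, groups that did not overlap, with a log2 fold change of -0.11 (SE 0.06; adjusted p = 0.685, limma). At 4 weeks the high-sugar arrays read 6607, 7159 and 6324 and the control arrays 6787.5, 6695 and 7352, and here the groups overlapped. Pfk, whose product phosphofructokinase commits the sugar to glycolysis, leaned the other way, at a log2 fold change of 0.09 (SE 0.08; adjusted p = 0.849) at 2 days and 0.06 (SE 0.08; adjusted p = 0.72) at 4 weeks.

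Tpi encodes triosephosphate isomerase, which interconverts the 2 triose phosphates. At 2 days it read 7401, 7864 and 7187 on high sugar and 8276, 8144 and 7872 on control. The groups were apart by a narrow gap, and the log2 fold change of -0.11 (SE 0.05) had an unadjusted p of 0.0412 and an adjusted p of 0.562 (limma). At 4 weeks the means were 6551 ± 218 on high sugar and 6621 ± 18 on control (SD, n = 3 each), with overlap between the arrays.

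Pglym78, the phosphoglycerate mutase of the second stage, had the largest diet estimate at each time among the 8 probe sets kept, in opposite directions. At 2 days it read 6361, 5815 and 6428 on high sugar and 6615, 7171 and 7123 on control, a log2 fold change of -0.17 (SE 0.08; unadjusted p = 0.0427, adjusted p = 0.569, limma). At 4 weeks it read 5051, 5622 and 5188.5 on high sugar and 5275, 4932 and 4386 on control, a log2 fold change of 0.12 (SE 0.08; adjusted p = 0.376). The diet groups were apart at 2 days and overlapped at 4 weeks. The difference between the diet effects at 4 weeks and at 2 days was 0.29 on the log2 scale (SE 0.11; 95% interval 0.06 to 0.52), with an unadjusted p of 0.0167 and an adjusted p of 0.655. No gene among 10418 passed that test of the difference in limma (0% called), where 757 had an unadjusted p under 0.05.

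Eno, the enolase gene, was the 1 member whose diet groups did not overlap at 4 weeks, at 7589, 7322 and 7708 on high sugar and 7719, 7733 and 8192 on control (log2 fold change -0.06, SE 0.05; adjusted p = 0.453, limma). The gap between the highest high-sugar array and the lowest control array was small beside the spread within the control group. Counted over the 8 genes, high-sugar arrays lay wholly below control arrays for 3 at 2 days (Pgi, Tpi and Pglym78), beside 7.65% of all genes, and for 1 at 4 weeks (Eno), beside 9.79%. For Ald1, Gapdh1 and Pgk the diet groups overlapped at both times, and their log2 fold changes lay between -0.05 and 0.04 on the probe sets kept. The second, dimmer probe set of Ald1 differed, with 5319, 5147 and 4700.2 on high sugar and 5531, 5949.7 and 5634 on control at 2 days, groups that did not overlap. Its log2 fold change of -0.18 (SE 0.06; 95% interval -0.31 to -0.04) had an adjusted p of 0.382 in a limma fit over all 11352 probe sets. The sign of several of these small differences turned under quantile normalization. Under it, Pgi stood at -0.02, Tpi at -0.04 and Pglym78 at -0.07 at 2 days, and the median of the 8 at 0.01.

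**Figure D1:**
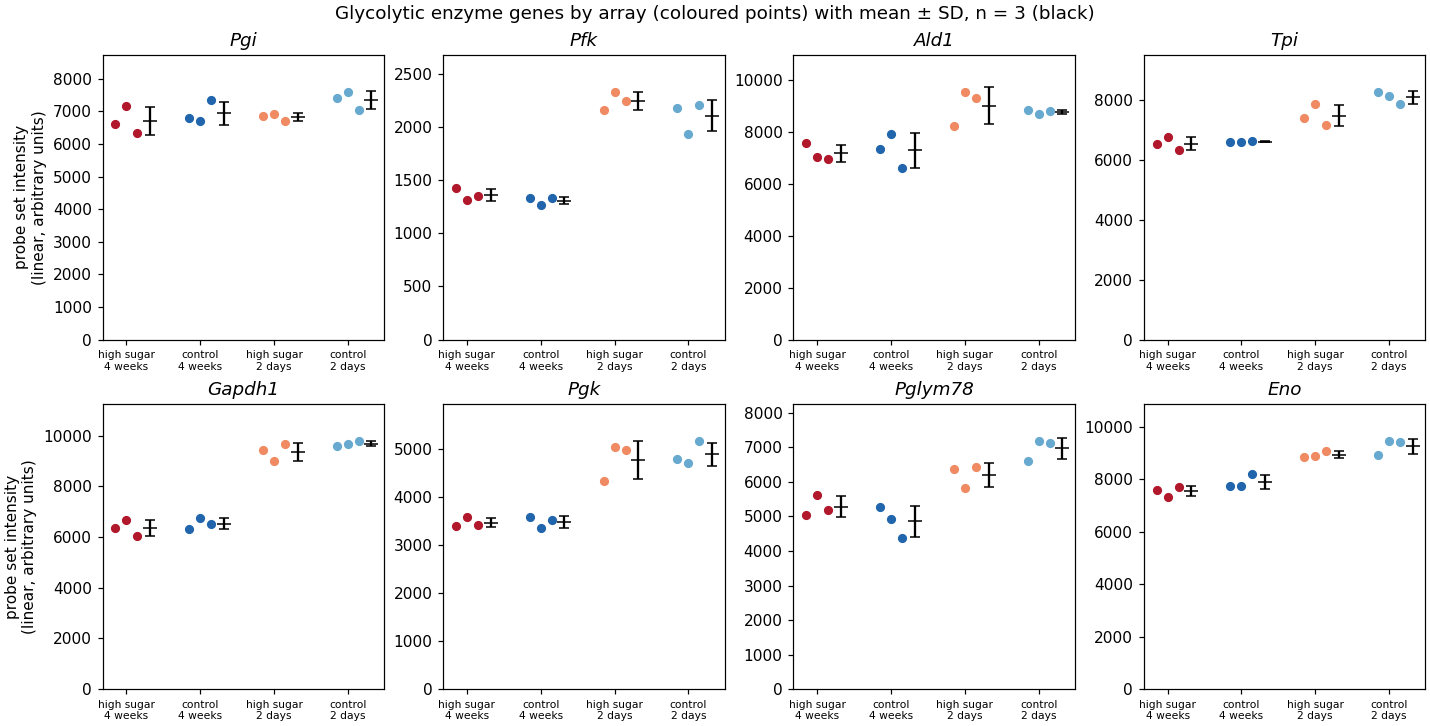
Intensity (linear scale) of the 8 measured glycolytic enzyme genes on each of the 12 arrays, 1 panel per gene, with 3 arrays per group of diet and feeding time. For every gene except Pgi all 4-week arrays lie below all 2-day arrays, while high-sugar and control arrays of 1 time lie close together.

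Time was compared on each diet to describe how the pathway stood in older flies. Transcripts of 7 of the 8 genes were lower at 4 weeks than at 2 days on high sugar, and the same 7 on control; Pgi was the exception on both diets. Over all genes 22.7% were lower at 4 weeks on high sugar, 18.8% on control and 14.9% on both. The median log2 fold change of the 8 was -0.29 on high sugar and -0.39 on control, beside 0.03 and -0.01 over all genes. For each of the 7 genes all 6 arrays of 4 weeks lay below all 6 arrays of 2 days, as they did for 13.5% of all genes. In whole flies, fewer cells of a type and less RNA per cell cannot be told apart.

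Pfk showed the largest decrease among the 8. It read 1423, 1310.3 and 1351 on high sugar and 1330.0, 1265 and 1328 on control at 4 weeks, against 2159, 2327 and 2239 on high sugar and 2177, 1935 and 2203 on control at 2 days. All 6 arrays of 4 weeks fell in a narrow band well under the lowest array of 2 days. The 4-week level was 60.7% of the 2-day level on high sugar (log2 fold change -0.72, SE 0.08; adjusted p = 7.1e-05, limma) and 62.2% on control (-0.68, SE 0.08; adjusted p = 0.000117).

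Gapdh1 encodes glyceraldehyde-3-phosphate dehydrogenase, the oxidation step that makes NADH. It read 6341, 6681.5 and 6040.0 on high sugar and 6318, 6749.9 and 6503 on control at 4 weeks, against 9422, 8998 and 9691 on high sugar and 9590.1, 9683 and 9776 on control at 2 days. Within a time the diets were interleaved at 4 weeks and close at 2 days, and the gap between times was larger than the spread within any group. The 4-week level was 67.8% of the 2-day level on high sugar (log2 fold change -0.56, SE 0.05; adjusted p = 2.0e-05, limma) and 67.4% on control (-0.57, SE 0.05; adjusted p = 2.4e-05).

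Pgk, phosphoglycerate kinase, catalyses the first step of the pathway that makes ATP. It read 3402, 3581 and 3420.4 on high sugar and 3579.8, 3353 and 3521 on control at 4 weeks, against 4329, 5043 and 4976 on high sugar and 4800.1, 4711.5 and 5160.3 on control at 2 days. The lowest 2-day array, a high-sugar one, still lay above every 4-week array. The 4-week level was 72.7% of the 2-day level on high sugar (log2 fold change -0.46, SE 0.07; adjusted p = 0.000417, limma) and 71.3% on control (-0.49, SE 0.07; adjusted p = 0.000442).

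These 3 genes, Pfk, Gapdh1 and Pgk, kept their calls on both diets under each of the 24 alternative settings tried. The others were less steady. Pglym78 fell to 85.3% of the 2-day level on high sugar (log2 fold change -0.23, SE 0.08; adjusted p = 0.0257, limma) and to 69.6% on control (-0.52, SE 0.08; adjusted p = 0.000401). Its call on high sugar was lost on centring the arrays on their medians (adjusted p = 0.0589) and on leaving out high-sugar array 1 or 3 of 2 days (-0.21 and -0.20; adjusted p = 0.0725 and 0.0788) or high-sugar array 1 or 3 of 4 weeks (-0.20 and -0.22; adjusted p = 0.0854 and 0.0742). The unequal change on the 2 diets is the difference of 0.29 given above for Pglym78, which did not pass over all genes.

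Ald1, Tpi and Eno fell by smaller amounts. Ald1, the aldolase gene, read 7553, 7024 and 6939.9 on high sugar and 7324, 7922 and 6589 on control at 4 weeks, against 8215, 9523 and 9281 on high sugar and 8826, 8686 and 8786 on control at 2 days. That was 79.7% of the 2-day level on high sugar (adjusted p = 0.00334, limma) and 82.8% on control (adjusted p = 0.0127). Tpi stood at 87.6% of the 2-day level on high sugar (adjusted p = 0.00892) and 81.8% on control (adjusted p = 0.00134). Eno stood at 84.4% on high sugar (adjusted p = 0.00138) and 85.2% on control (adjusted p = 0.00316). Pgi did not pass, at 98% of the 2-day level on high sugar (log2 fold change -0.03, SE 0.06; adjusted p = 0.713) and 94.5% on control (-0.08, SE 0.06; adjusted p = 0.303).

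Ald1 was the 1 measured member with more than 1 probe set, and its probe sets disagreed over time as they did for diet at 2 days. Over time the dimmer one read 5459.7, 5332 and 5246 on high sugar and 5623, 5567 and 5284 on control at 4 weeks, against the 2-day values given above. These groups overlapped in time on both diets, with log2 fold changes of 0.08 on high sugar (adjusted p = 0.297) and -0.05 on control (adjusted p = 0.508) in a limma fit over all 11352 probe sets. When the values of both Ald1 probe sets were averaged, the call of Ald1 on high sugar was lost (log2 fold change -0.12; adjusted p = 0.0968). Its decrease therefore holds for the brighter probe set.

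**Figure D2:**
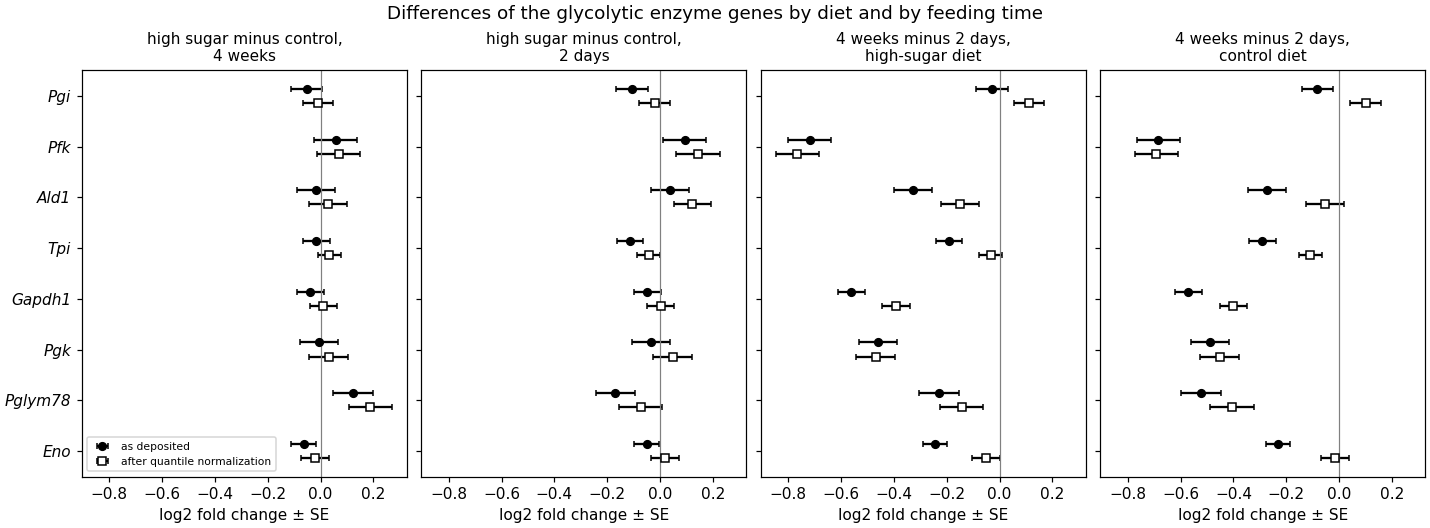
Log2 fold change ± SE of each of the 8 genes in 4 panels, for diet at 4 weeks and 2 days and for time on high sugar and control; filled circles are the deposited scale and open squares the values after quantile normalization. Diet estimates on the deposited scale lie between -0.17 and 0.12, and time estimates reach -0.72 for Pfk. After quantile normalization Pfk stays at -0.77 on high sugar and -0.69 on control. The time estimates of Eno, Tpi, Ald1, Gapdh1 and Pglym78 move toward 0 on both diets, and those of Pgi move past 0.

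The scale of the arrays bore on the smaller decreases. Quantile normalization gives all 12 arrays the same distribution. It left 3 of the 8 genes called lower on high sugar (Pfk, Gapdh1 and Pgk) and 4 on control (those 3 and Pglym78). Over all genes in that setting, 2289 of 10417 were lower on high sugar and 1830 on control. The median of the 8 was then -0.15 on high sugar and -0.25 on control. Pfk stood at -0.77 and -0.69, Gapdh1 at -0.39 and -0.40, and Pgk at -0.47 and -0.45. Under it Eno changed by -0.05 on high sugar (adjusted p = 0.434, limma) and -0.02 on control (adjusted p = 0.838), Tpi by -0.03 (adjusted p = 0.552) and -0.11 (adjusted p = 0.0671), and Ald1 by -0.15 (adjusted p = 0.107) and -0.05 (adjusted p = 0.58). Pglym78 on high sugar stood at -0.14 (adjusted p = 0.17). Pgi turned to 0.11 on high sugar (adjusted p = 0.134) and 0.10 on control (adjusted p = 0.19). Under quantile normalization the calls on Eno, Tpi and Ald1 were thus lost on both diets. It evens out the whole distribution, the 99th percentile included, and the part of the shift of that percentile was not tested by itself.

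Muscle and testis markers moved the same way in time as the glycolytic genes. Of 20 muscle markers, 17 were lower at 4 weeks on high sugar and 18 on control, beside 22.7% and 18.8% of all genes, with none higher and median log2 fold changes of -0.68 and -0.78. Of 25 testis markers, 18 were lower on high sugar and 15 on control, with 1 higher on each diet. The summed intensity of the muscle markers was 58994 to 59977 on high sugar and 51136 to 58111 on control at 4 weeks, against 94218 to 106579 on high sugar and 87404 to 101921 on control at 2 days. The testis sum was 57560.3 to 64787 on high sugar and 64281 to 69947 on control at 4 weeks, against 78891 to 88064 on high sugar and 84121 to 89358 on control at 2 days. No marker of either list lay at the floor on all arrays of a group. The part of these shifts in the change of the glycolytic genes was not tested.

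The summed intensity of the 8 glycolytic genes was 43310.4 to 45474 on high sugar and 44513 to 45264 on control at 4 weeks, against 53575 to 55591 on high sugar and 56620.4 to 57358 on control at 2 days. The sums of the diets overlapped at 4 weeks and lay apart at 2 days, with high sugar the lower. At 2 days the 99th percentile of all probe sets was also lower on high sugar, at 9085 to 9309.6 beside 9440.02 to 9713 on control. Under quantile normalization the median diet log2 fold change of the 8 at 2 days was 0.01. The part of the array scale in the gap between the sums was not tested. Other tissue markers did not share one direction. Of 11 neuron markers, 3 were lower at 4 weeks on high sugar, near the 22.7% of all genes, and 6 on control, beside 18.8%, with none higher. Of 12 gut markers, 4 were lower and 0 higher on high sugar, beside 22.7% and 19.9% of all genes. On control 1 gut marker was lower and 1 higher, beside 18.8% and 14.3%. Of 6 fat body markers, 1 was lower and 3 higher on high sugar, and 0 were lower and 2 higher on control, beside the same shares of all genes.

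**Figure D3:**
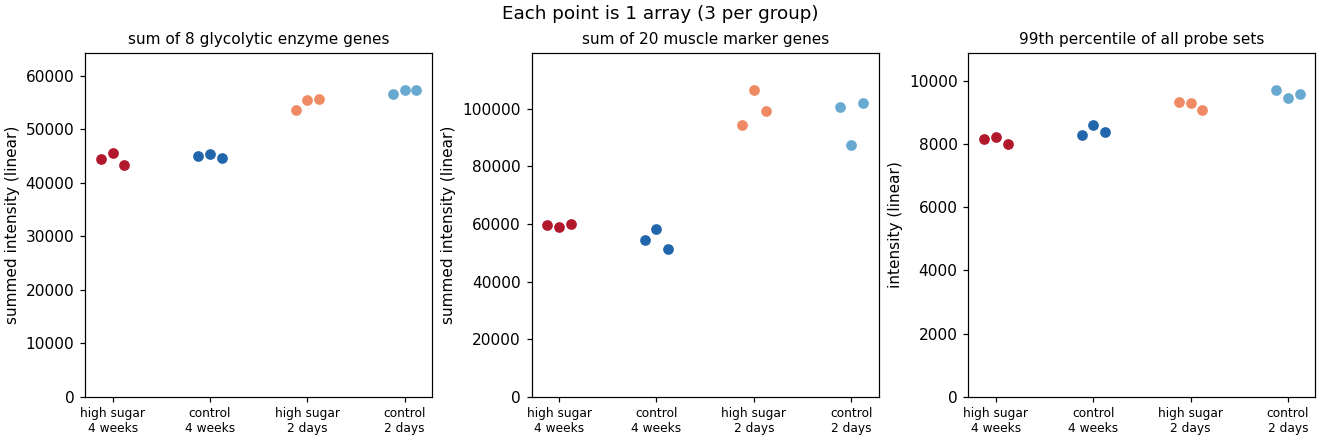
Summed linear intensity of the 8 glycolytic genes and of 20 muscle markers, and the 99th percentile of all probe sets, on each of the 12 arrays in 4 groups of 3. All 3 quantities are lower on every 4-week array than on any 2-day array, with the 99th percentile at 8009 to 8609.7 at 4 weeks and 9085 to 9713 at 2 days.

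Around the core pathway, hexokinases make the glucose 6-phosphate on which it starts. All 4 were measured, and 3 were lower at 4 weeks on high sugar, beside 22.7% of all genes, and 2 on control, beside 18.8%. After quantile normalization 4 were lower on high sugar and 3 on control, beside 2289 and 1830 of 10417 genes. Hex-t2, a hexokinase of the testis, had the largest decrease of the 4, at 920 ± 132 on high sugar and 1075 ± 122 on control at 4 weeks, against 1846 ± 201 on high sugar and 1928 ± 121 on control at 2 days (SD, n = 3 each). Its log2 fold change was -1.01 (SE 0.13; adjusted p = 0.000147, limma) on high sugar and -0.85 (SE 0.13; adjusted p = 0.000521) on control. Hex-t1, the other testis hexokinase, fell by 0.61 on the log2 scale on high sugar (adjusted p = 0.00201) and by 0.38 on control (adjusted p = 0.0309). The call on control was lost without any 1 of the control arrays of 2 days or without control array 1 of 4 weeks, with the adjusted p reaching 0.129. For Hex-t1 it was also lost with the replicate block (adjusted p = 0.0531) and with only the arrays compared (adjusted p = 0.0733). Hex-A, the hexokinase of most adult tissues, fell on high sugar to 80.4% of the 2-day level (adjusted p = 0.00467), while on control it stood at 87.9% (adjusted p = 0.0682). Hex-C did not pass on either diet, at 92.3% on high sugar (adjusted p = 0.332) and 101% on control (adjusted p = 0.908).

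A further 9 genes listed as copies of glycolytic enzymes were tested. On high sugar 8 were lower at 4 weeks and 1 higher, beside 22.7% and 19.9% of all genes, and on control 6 were lower, beside 18.8%. The median log2 fold changes were -0.79 and -0.45. Pglym87, a second phosphoglycerate mutase gene, was at 992 ± 115 on high sugar and 1197 ± 224 on control at 4 weeks, against 1965 ± 174 on high sugar and 2133 ± 368 on control at 2 days (SD, n = 3 each). Its 4-week arrays lay wholly below its 2-day arrays on both diets. Such a gap was seen for 26.5% of all genes on high sugar and 25.1% on control. Pglym87 fell to 50.4% of the 2-day level on high sugar (adjusted p = 0.000402, limma) and 56.1% on control (adjusted p = 0.00183). CG9961 fell by 0.66 and 0.41 on the log2 scale on high sugar and control, CG12229 by 0.83 and 0.61, and CG11249 by 0.55 and 0.52. The calls on Pglym87, CG9961, CG12229 and CG11249 held on both diets under all alternatives.

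The direction of CG7059, another gene of that list, was opposite on high sugar. It was at 1320 ± 382 on high sugar and 848 ± 149 on control at 4 weeks, against 822 ± 116 on high sugar and 924 ± 199 on control at 2 days (SD, n = 3 each). Its log2 fold change in time was 0.65 (SE 0.21; adjusted p = 0.0225, limma) on high sugar and -0.12 (SE 0.21; adjusted p = 0.685) on control. At 4 weeks the diets differed by 0.61 (SE 0.21; adjusted p = 0.141), which did not pass. The high-sugar call of CG7059 in time was lost without high-sugar array 3 of 2 days or array 1 of 4 weeks, with the adjusted p reaching 0.0981, and with no filter on dim probe sets (adjusted p = 0.0522).

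A list of 16 genes at the ends and branches of glycolysis were tested, and called genes lay in both directions. At 4 weeks 6 were lower and 3 higher on high sugar, beside 22.7% lower and 19.9% higher over all genes. On control 4 were lower and 3 higher, beside 18.8% and 14.3%. The counts higher, and the count lower on control, are near those shares. Gpo2 and Gpo3 encode copies of the mitochondrial glycerol-3-phosphate dehydrogenase that passes cytosolic electrons to the respiratory chain. Gpo2 fell to 48.6% of the 2-day level on high sugar (log2 fold change -1.04, SE 0.15; adjusted p = 0.000314, limma) and 52.8% on control (-0.92, SE 0.15; adjusted p = 0.00101). Gpo3 fell to 60.6% on high sugar (adjusted p = 0.00347) and 64% on control (adjusted p = 0.00929). Gpdh1, the main cytosolic partner of that shuttle, did not pass, at 98.2% on high sugar (adjusted p = 0.899) and 86.9% on control (adjusted p = 0.308). Ldh, which turns pyruvate into lactate, and Gpo1 were not analysed here.

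Beyond pyruvate, muc encodes the acetyltransferase core of the pyruvate dehydrogenase complex, and Pdk encodes the kinase that switches that complex off. The 2 genes moved in opposite directions. Transcripts of muc stood at 4858 ± 139 on high sugar and 4743 ± 167 on control at 4 weeks, against 6356 ± 359 on high sugar and 6689 ± 115 on control at 2 days (SD, n = 3 each; log2 fold change -0.39 on high sugar, adjusted p = 0.00032, and -0.50 on control, adjusted p = 9.7e-05, limma). Pdk stood at 4136 ± 380.3 on high sugar and 4083 ± 171 on control at 4 weeks, against 2917 ± 180.1 on high sugar and 3056 ± 196 on control at 2 days (SD, n = 3 each; log2 fold change 0.50, adjusted p = 0.00063, and 0.42, adjusted p = 0.003). For both genes the 4-week and 2-day arrays did not overlap on either diet. Over all genes, 4-week arrays lay wholly below 2-day arrays for 26.5% on high sugar and 25.1% on control. They lay wholly above for 28.6% on high sugar and 20.3% on control. CG9399, listed in the gene table under the synonym dMPC2 as a part of the mitochondrial pyruvate carrier, fell to 73.2% on control (adjusted p = 0.0061) and stood at 83.4% on high sugar (adjusted p = 0.0548).

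Gluconeogenesis runs the pathway in reverse and bypasses its irreversible steps. Transcripts of fbp, the fructose-1,6-bisphosphatase that opposes Pfk, rose with time on both diets. It stood at 2717 ± 174 on high sugar and 3088 ± 28.1 on control at 4 weeks, against 1836 ± 183 on high sugar and 2302.5 ± 261 on control at 2 days (SD, n = 3 each). The log2 fold change was 0.57 (SE 0.10; adjusted p = 0.000803, limma) on high sugar and 0.43 (SE 0.10; adjusted p = 0.00632) on control, and the calls held under all alternatives. Pepck2, 1 of the 2 genes for phosphoenolpyruvate carboxykinase, rose to 165% of the 2-day level on high sugar (adjusted p = 0.00113) and to 129% on control (adjusted p = 0.0494, limma). The control call of Pepck2 was lost under 15 of 24 alternatives, with the adjusted p reaching 0.192. Pepck1, the other of the 2 genes and far brighter, did not pass on either diet. At 4 weeks Pepck1 stood at 11080 ± 54.5 on high sugar and 10656 ± 751 on control (SD, n = 3 each). At 2 days it stood at 10808 ± 527 and 11393 ± 626, where Pepck2 stood at 198 ± 18.3 and 147 ± 17.9.

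**Figure D4:**
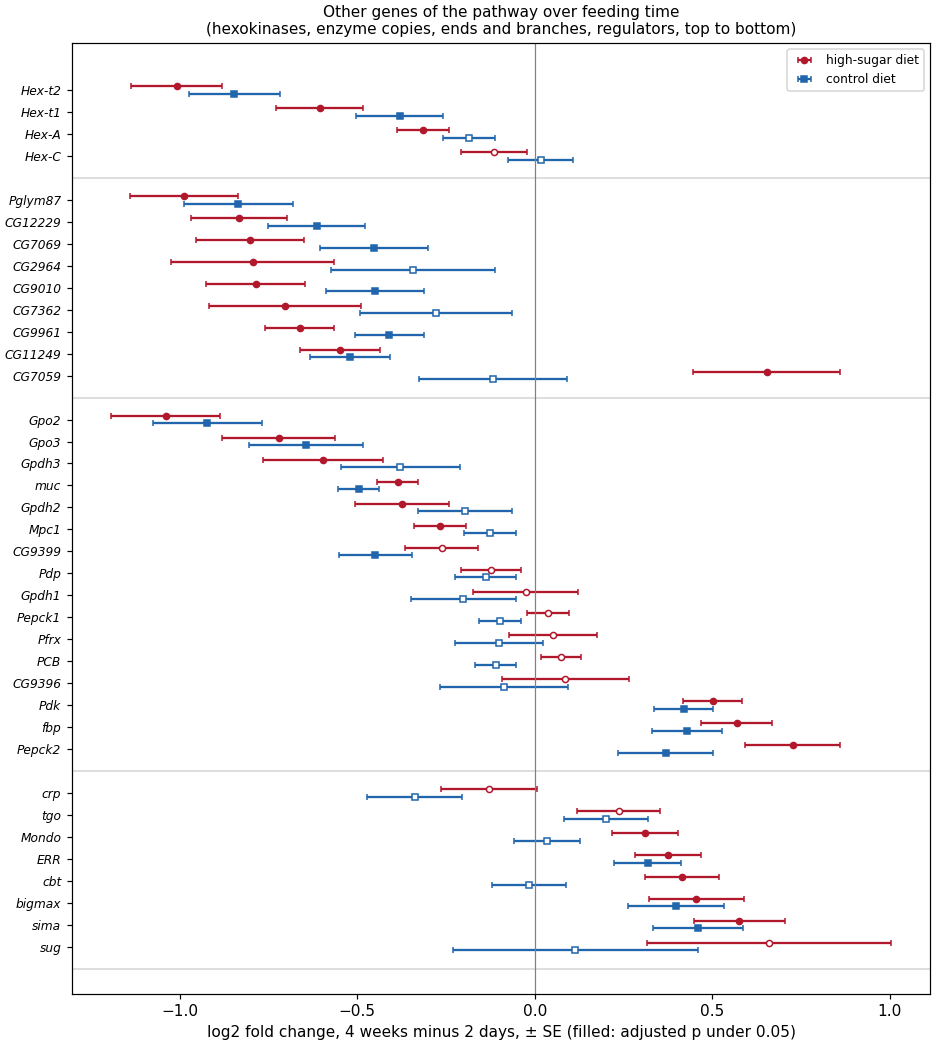
Log2 fold change ± SE in time (4 weeks minus 2 days) on high sugar (circles) and control (squares) for the 37 pathway genes outside the core enzymes, grouped by list; filled symbols passed an adjusted p under 0.05. Gpo2, at -1.04 and -0.92, and Hex-t2, at -1.01 and -0.85, lie farthest below 0, while fbp, at 0.57 and 0.43, and Pdk, at 0.50 and 0.42, lie above 0.

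Among 8 regulators of glycolytic genes, 5 were higher and none lower at 4 weeks on high sugar, beside 19.9% of all genes higher. On control 3 were higher and none lower, beside 14.3%. The median log2 fold changes were 0.39 and 0.16. ERR, the receptor named above, stood at 178 ± 12 on high sugar and 163 ± 7.11 on control at 4 weeks, against 137 ± 10.3 on high sugar and 131 ± 6.22 on control at 2 days (SD, n = 3 each; log2 fold change 0.38, adjusted p = 0.00666, and 0.32, adjusted p = 0.0208, limma). Its call on control was lost without control array 1 or 3 of 2 days or control array 1 of 4 weeks, with the adjusted p reaching 0.075. The gene sima, the fly hypoxia-inducible factor, rose by 0.58 on high sugar (adjusted p = 0.00331) and 0.46 on control (adjusted p = 0.0155), and the call of sima on control was lost without control array 1 of 2 days or of 4 weeks (adjusted p up to 0.0587). These rises stand beside lower transcripts of the enzymes; a link between them was not tested.

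Diet at 4 weeks was also read for these neighbours. Of the 37 genes in the lists of hexokinases, copies, ends and branches, and regulators, Pepck2, sug and cbt were higher on high sugar than on control, beside 0.806% of all genes, and none was lower. The transcription factor gene sug, a known target of Mondo, had a log2 fold change of 1.84 (SE 0.34; adjusted p = 0.0166, limma), and that call was lost without high-sugar array 1 or 2 or control array 3 of 4 weeks (adjusted p up to 0.0732) and with no filter on dim probe sets (adjusted p = 0.0698). Pepck2 had 0.79 (SE 0.13; adjusted p = 0.0099), lost without high-sugar array 2 of 4 weeks (adjusted p = 0.0506), and cbt, another transcription factor gene regulated by sugar, had 0.62 (SE 0.10; adjusted p = 0.00994). Pepck1, the brighter gene for the enzyme of Pepck2, did not pass. In the same comparison 4 of 12 gut markers were lower, beside 117 of 10418 genes, and none higher. All 12 gut estimates were negative, with a median of -0.70. Of 11 neuron markers 1 was higher, beside 0.806% of all genes, and none lower, with all 11 estimates positive and a median of 0.30. Their part in the diet results was not tested.

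**Figure D5:**
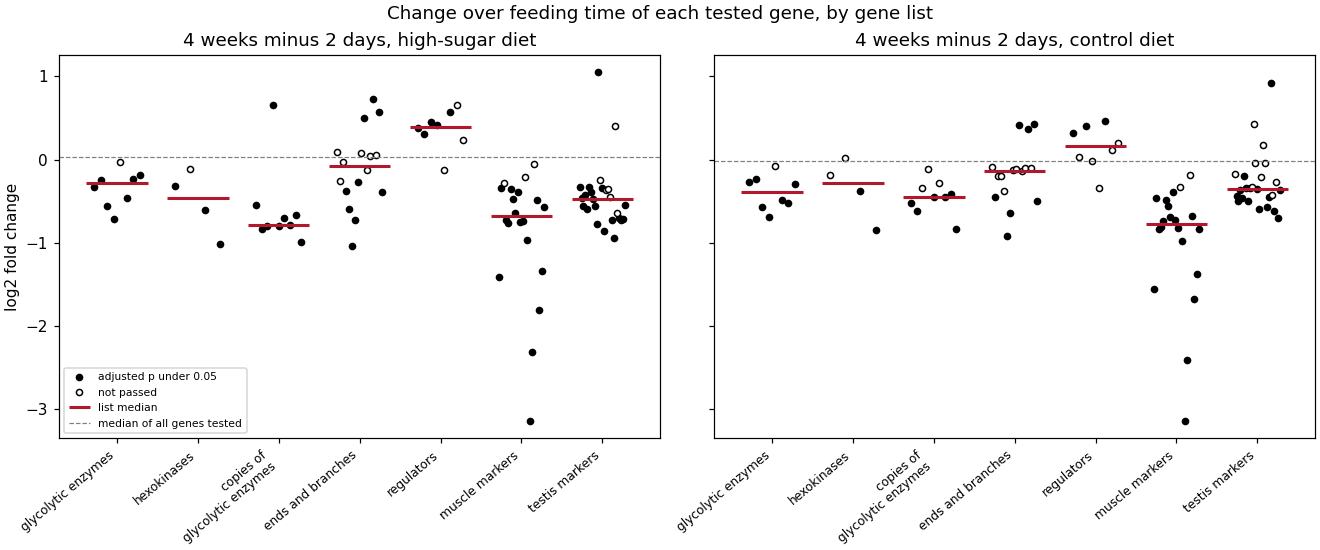
Log2 fold change in time of each gene in the core glycolysis, pathway, muscle marker and testis marker lists on each diet. Filled points passed an adjusted p under 0.05. A line marks each list's median and a dashed line that of all tested genes. The medians of the 8 core genes, -0.29 on high sugar and -0.39 on control, lie between those of the muscle markers, -0.68 and -0.78, and those of all genes, 0.03 and -0.01.

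All of the 8 enzyme genes except Pgi tracked each other closely over the 12 arrays. The highest r of Pgi was 0.64, with Tpi. Pearson's r for the 28 pairs ran from 0.17 (Pgi with Ald1) to 0.96 (Pfk with Pgk), with a median of 0.86. Once the 4 group means were removed, r ran from -0.53 (Tpi with Eno) to 0.65 (Pgi with Tpi), with a median of 0.00. Apart from the differences between groups, pairs therefore showed no common direction. All pairs share the same arrays and their scaling.

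Beyond the set, the profiles most like the mean of the 8 genes over the 12 arrays were those of Spn38F (r = 0.99), SP (0.99), SERCA (0.99), ATPsyngamma (0.98), Scp1 (0.98), ATPsynB (0.98), Glyp (0.98) and aqrs (0.98). SERCA pumps calcium back into the sarcoplasmic reticulum of muscle, ATPsyngamma and ATPsynB are subunits of the mitochondrial ATP synthase, and SP is the sex peptide of the male accessory gland. Glyp, glycogen phosphorylase, releases stored glucose for glycolysis, and its log2 fold change in time was -1.07 on high sugar and -1.19 on control. SERCA changed by -1.62 on high sugar and -1.63 on control. These correlations share the arrays and follow mainly the difference between times. With group means removed, the closest genes were Lar (r = 0.87) and strat (0.85), with the glycogen synthase gene Glys among the nearest 8 (0.83). These are the highest values among all genes tested outside the set. How high r would run for unrelated genes was not tested.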

How the data were processed

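Per the series text, the authors took probe set intensities from the scans with dChip (2006 version), by its perfect match/mismatch model, and normalized them in the same program. The deposited values are linear intensities from 1 to 16579.5. Whether the biological replicates were pools of flies is not given in the sources used here. Values under the pooled 20th percentile (11.78) were set to it and log2 transformed. Control probe sets were dropped, as were the dimmest 30% by mean (under log2 4.30), and 1 probe set a gene was kept, that with the highest mean over 12 arrays. Symbols came from the array annotation and the gene table. Group means of all 12 arrays were fitted with limma 3.58.1 in R 4.3.3 (eBayes with trend; 8 residual and 5 prior degrees of freedom), and Benjamini-Hochberg adjustment ran over 10418 genes per comparison. The log2 fold changes are high sugar minus control or 4 weeks minus 2 days. The code was tested on simulated data. All members were named, with all hexokinases, Ldh, Gpdh1, Gpo1 and Pglym87. Other listed genes could be named where they passed the threshold in any comparison, and those not named are in the counts. Pepck1, which passed in none, was named beside Pepck2. The members, lists and tests were chosen with earlier results of these data known. Arrays with the same replicate number did not deviate together (18 pairs, median r = -0.05, 4 over 0.1), so no block was used. The alternatives were 2 other normalizations, floors, filters, eBayes settings, array weights, a replicate block, the arrays compared alone, the mean of all probe sets and each array left out.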

Additional observations from a re-analysis of the deposited data

How the results depend on the processing

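The number of the 8 glycolytic genes called was 0 in each of the diet comparisons under every alternative run. Over time it was 7 on both diets. Under quantile normalization it was 3 on high sugar and 4 on control, beside 2289 and 1830 of 10417 genes lower. Leaving out 1 array gave 6 to 7 on high sugar and 7 to 7 on control. With the replicate number as a block, 7 genes were called on each diet and no member's call changed. In only 4 of 18 pairs of arrays with the same number was that number the best match. On high sugar Tpi and Pglym78 also lost their calls in eBayes without a trend (adjusted p = 0.0591 and 0.067, limma). The diet estimates of several genes are so close to 0 that their sign turned, with no call either way. Under quantile normalization the values turned to 0.0025 (Gapdh1), 0.048 (Pgk) and 0.017 (Eno) at 2 days, to 0.028 (Ald1), 0.033 (Tpi), 0.011 (Gapdh1) and 0.030 (Pgk) at 4 weeks, to -0.017 for the Pgk difference between times, and to 0.0066 (Gapdh1), 0.039 (Pgk) and 0.058 (Pglym78) in the average. Under it Pgi over time turned to 0.11 on high sugar and 0.10 on control. With the mean of all probe sets Ald1 gave -0.070 at 2 days, 0.042 in the difference and -0.049 in the average. Array weights gave 0.0058 for Pgk at 4 weeks and -0.0054 for Ald1 in the average, and centring gave 0.0017 for the Eno difference. Leaving out 1 array at a time gave, at 2 days, -0.0056 to 0.10 (Ald1) and -0.074 to 0.036 (Pgk). At 4 weeks it gave -0.088 to 0.045 (Ald1), -0.040 to 0.0076 (Tpi) and -0.034 to 0.013 (Pgk). In the difference it gave -0.069 to 0.025 (Pfk), -0.12 to 0.0090 (Ald1), -0.028 to 0.045 (Gapdh1), -0.042 to 0.068 (Pgk) and -0.029 to 0.015 (Eno). In the average it gave -0.026 to 0.041 (Ald1), -0.041 to 0.014 (Pgk) and -0.059 to 0.0073 (Pglym78), and for Pgi over time on high sugar -0.079 to 0.011. The cause of these turns was not tested. The count over all genes, behind the shares given for diet, ranged from 1 (without high-sugar array 2 of 2 days) to 28 (arrays centred) at 2 days, where 15 were called. At 4 weeks it ranged from 82 (without high-sugar array 2 of 4 weeks) to 265, beside 201, and in the average from 150 (without the same array) to 376, beside 273. The difference between times, at 0, reached 3 without control array 2 of 4 weeks. Over time the control count ranged from 2137 (without control array 3 of 2 days) to 3724, beside 3449. Of the calls over time outside the core enzymes, 6 of 9 on copies, 6 of 9 at the ends and branches, 3 of 5 on regulators and 3 of 3 on hexokinases held under all alternatives on high sugar, and 4 of 6, 6 of 7, 0 of 3 and 1 of 2 on control.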
